A study of Mus musculus with 40 samples.

Results

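The genes described here encode the laminins and the integrins, the main proteins of the basement membrane around muscle fibers and the receptors that hold cells to it. They were chosen by symbol, as Lama, Lamb or Lamc followed by a digit, or Itga or Itgb followed by a digit or by v, and by a level of 1 CPM (a read count scaled to the library total) or above in 5 or more of the 40 libraries. This gave 34 of the 13543 genes tested, among the 22844 genes listed. There were 10 laminin chains (4 alpha, 3 beta and 3 gamma chains), 21 integrin subunits (13 alpha and 8 beta) and 3 genes, Itgb1bp1, Itgb1bp2 and Itgb3bp, whose symbols fit the rule but which encode proteins named for binding an integrin tail. The rule used levels over all libraries and no comparison between groups.

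Poly(A) RNA was sequenced from the extensor digitorum longus (EDL), a fast hindlimb muscle, of mice of the strain Tsc1tm1Djk/J. In TSCmKO mice the muscle fibers lack Tsc1, which restrains the kinase complex mTORC1, and mTORC1 remains active in them. Their littermates (CON) carry the same floxed alleles, labelled Tsc1fl/fl, without Cre. The question was what active mTORC1 in muscle fibers changes, at 3 months, before wasting is overt, and at 9 months, and what 3 days of mTORC1 inhibition moves. Mice of each genotype received vehicle or rapamycin (+RM) by intraperitoneal injection for 3 days, at 4 mg per kg on the labels, but a legend in the study names a larger dose per day, and which was used is uncertain. The 8 groups were 3mCON, 3mCON+RM, 3mTSCmKO, 3mTSCmKO+RM, 9mCON, 9mCON+RM, 9mTSCmKO and 9mTSCmKO+RM, with 5 mice and 1 library per mouse in each. Cre acts in muscle fibers, while vessels, nerve, connective tissue, blood cells and satellite cells in the same muscle keep Tsc1.

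Laminins are trimers of an alpha, a beta and a gamma chain, secreted and assembled into a sheet outside the cell. Integrins are pairs of an alpha and a beta subunit that span the cell membrane, bind laminin, collagen or fibronectin outside, and link to the actin skeleton inside. In muscle, the laminin of the fiber surface contains the Lama2 chain, Itga7 with Itgb1 is its main integrin receptor in mature fibers, and loss of either gene causes muscle disease. The Lamb2, Lama4 and Lama5 chains are concentrated at the neuromuscular junction.

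Total counts ran from 8883870 to 35224669 per library, and the 34 genes together held 0.0868% to 0.159% of them. Tsc1 itself was at 51.3 to 134 CPM in the CON libraries and at 17.8 to 35.8 CPM in the TSCmKO libraries, in accord with every label. The 5 fiber markers Acta1, Ckm, Tnnt3, Myh4 and Mylpf were present in every library. The labels give mean insert sizes of 175 to 239 nt in the 3-month libraries and of 223 to 308 nt in the 9-month ones, so that age and library preparation cannot be told apart. The RNA comes from whole muscle, in which fewer cells of a type and less RNA per cell cannot be told apart. P-values measure the spread between the mice of these groups. Replicate 5 of 9mCON stood apart in tendon markers, whose summed level was 361 CPM there and 44.7 to 105 CPM in the other 4 libraries of that group.

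Per transcript length, the chains of this family covered a wide range. In the 10 vehicle CON libraries, Itgb1bp2 (melusin, a chaperone of striated muscle) was at 168 ± 16.7 TPM (a unit scaled by transcript length; SD, n = 10) and Itgb1, the beta subunit common to most laminin and collagen receptors, was at 152 ± 34.0 TPM. These neighbours in the order overlapped, at 141 to 189 TPM and 91.7 to 191 TPM. Lamb2 followed at 67.2 ± 17.5 TPM and Itgb5, which pairs with Itgav, at 67.1 ± 11.9 TPM. The highest alpha subunit was Itga7 at 49.4 ± 9.06 TPM, then Itga6, another laminin-binding subunit, at 30.5 ± 4.87 TPM, and the ranges of these 2 met only between 34.5 and 36.6 TPM. The highest gamma chain was Lamc1 at 29.9 ± 11.1 TPM, which spanned 10.7 to 44.4 TPM, and the highest alpha chain was Lama4 at 14.9 ± 4.94 TPM. Lama2 was listed at 12.01 ± 6.44 TPM and Lama5 at 10.2 ± 2.19 TPM, so that the 3 alpha chains could not be ordered beyond their spread. The level of Lama2 is uncertain, because the length implied by its counts and TPM was 2913 nt where its longest annotated transcript has 9614 nt. The same holds for Itgb4 (433 of 6208 nt) and Lamb3 (2027 of 4867 nt). The lowest were Lamc3 at 0.418 ± 0.259 TPM and Itga2 at 0.391 ± 0.217 TPM.

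**Figure D1:**
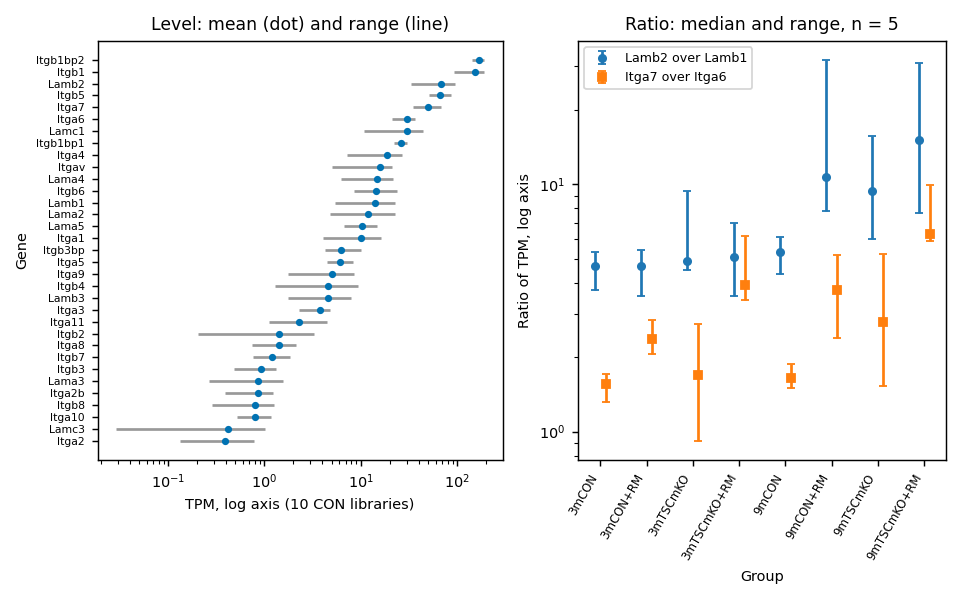
The left panel gives the mean (dot) and range (line) of TPM on a log axis in the 10 vehicle CON libraries for 33 of the 34 genes, from Itgb1bp2 at 168 TPM down to Itga2 at 0.391 TPM. The right panel gives, for each group, the median and range over 5 libraries of the TPM ratios Lamb2 over Lamb1 (circles) and Itga7 over Itga6 (squares), and the Itga7 over Itga6 median lies higher in each +RM group than in the vehicle group of the same age and genotype.

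At 9 months, 17 of the 34 genes differed between TSCmKO and CON (edgeR quasi-likelihood test, Benjamini-Hochberg adjusted p under 0.05), where 37.9% of all genes tested did. The direction was uneven: 13 genes were lower and 4 were higher in 9mTSCmKO, where 18.9% and 19.1% of all genes were lower and higher. The median log2 fold change was -0.31 for the 34 genes and -0.02 for all genes. A fit of these 10 libraries alone called 11, and 20.01% of all genes. Values in brackets after a gene are its log2 fold change ± standard error (SE), where given, and its adjusted p from edgeR, with levels in CPM scaled by the TMM method. In 7 genes the 2 groups did not overlap, as in 16.0% of all genes. By class, 7 of the 10 laminins passed (5 lower, 2 higher), 8 of the 21 integrin subunits (7 lower, 1 higher) and 2 of the 3 binding proteins (1 lower, 1 higher). At 3 months 8 genes passed (23.5%, against 19.8% of all genes), 5 lower and 3 higher, with 8.32% and 11.4% of all genes lower and higher.

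**Figure D2:**
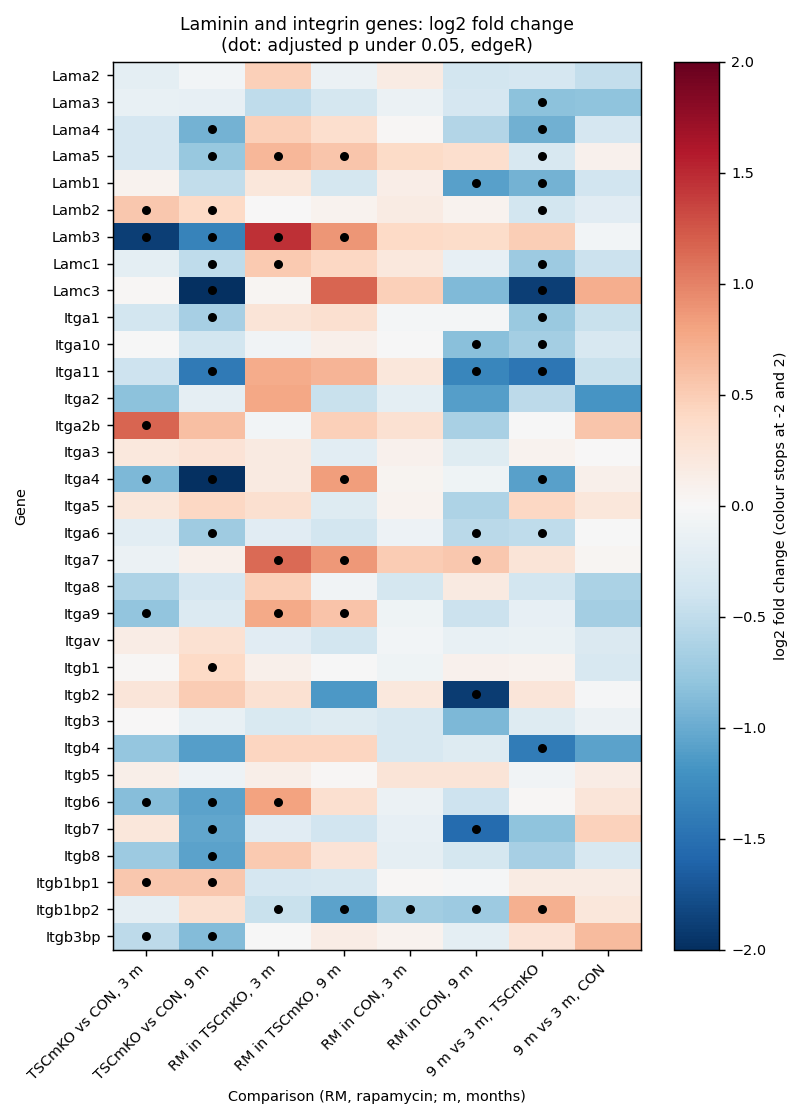
Each row is 1 of 33 of the 34 genes and each column 1 comparison between groups of 5 libraries, coloured by log2 fold change (red higher, blue lower, colour stopping at -2 and 2), with a dot where the adjusted p of edgeR was under 0.05. In the 9-month genotype column 13 of the 16 dots lie on blue, while the 3-month genotype column holds 8 dots.

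Among the laminins, Lamb3, a beta chain known mostly from the laminin of skin and other epithelia, was lower at both ages, without overlap of the groups. In replicates 1 to 5 it stood at 5.15, 4.28, 4.998, 5.42 and 2.87 CPM in 3mCON and at 1.12, 1.11, 1.34, 1.66 and 0.936 CPM in 3mTSCmKO. At 9 months it stood at 3.19, 4.98, 4.22, 4.69 and 5.06 CPM in 9mCON and at 1.82, 1.94, 2.01, 1.91 and 1.14 CPM in 9mTSCmKO. Every TSCmKO library was below every CON library of its age. The log2 fold change was -1.88 ± 0.19, adjusted p = 1.1e-09, at 3 months and -1.33 ± 0.19, adjusted p = 4.31e-07, at 9 months. Lamb3 lies at chr1:193207699-193343878 (GRCm38, plus strand, protein-coding), and 34 to 182 counts per library lay behind its 3mCON values.

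Lama5, an alpha chain of vessel walls and of the synaptic basement membrane, was lower at 9 months. Its values were 93.01, 52.1, 52.5, 59.6 and 68.5 CPM in 9mCON and 38.1, 43.6, 39.2, 35.5 and 36.5 CPM in 9mTSCmKO, without overlap, and the log2 fold change was -0.76 ± 0.13, adjusted p = 1.07e-05. At 3 months the groups did not overlap either (61.2 ± 4.17 against 48.3 ± 5.097 CPM, SD, n = 5), but the adjusted p was 0.054 at a log2 fold change of -0.34. Lama4, the alpha chain of vessel walls that also occurs at the synapse, was lower at 9 months, from 31.3, 16.8, 22.4, 28.4 and 45.3 CPM in 9mCON to 17.9, 16.2, 13.2, 13.5 and 14.3 CPM in 9mTSCmKO (-0.95 ± 0.22, adjusted p = 0.000923). Replicate 1 of 9mTSCmKO lay above the lowest 9mCON library. With limma the call of Lama4 was lost (-0.60, adjusted p = 0.053). Lama2, the chain of the fiber surface, passed no test, at 15.8 ± 4.68 and 15.3 ± 5.44 CPM (-0.05, adjusted p = 0.859), and Lama3, the remaining alpha chain, was at -0.17, adjusted p = 0.695.

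The 3 beta chains did not move together at 9 months. Lamb2, which takes the place of Lamb1 at the synapse and in vessels, was higher in TSCmKO at 3 months, with 175, 152, 131.5, 143 and 158 CPM in 3mCON against 233, 286, 207, 170.1 and 206 CPM in 3mTSCmKO (0.54 ± 0.14, adjusted p = 0.00433). All but replicate 4 of 3mTSCmKO lay above the highest CON library. At 9 months it was at 128, 96.4, 122, 126 and 177.5 CPM in 9mCON and 168, 210.5, 171, 162 and 145 CPM in 9mTSCmKO (0.40 ± 0.14, adjusted p = 0.022), and this call was lost when any 1 of 9mCON replicate 2 and 9mTSCmKO replicate 2 was left out (0.31, adjusted p = 0.0797 to 0.0862). Lamb1 passed at neither age (-0.49, adjusted p = 0.149 at 9 months and 0.07, adjusted p = 0.891 at 3 months). The TPM of Lamb2 was 4.68 (3.75 to 5.33) times that of Lamb1 in 3mCON (median and range) and 4.899 (4.49 to 9.396) times in 3mTSCmKO, given here as a description. At 9 months it was 5.32 (4.34 to 6.13) times in 9mCON, 9.37 (6.02 to 15.7) times in 9mTSCmKO, 10.7 (7.76 to 31.8) times in 9mCON+RM and 15.1 (7.67 to 30.9) times in 9mTSCmKO+RM.

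Of the gamma chains, Lamc3 had the largest fold change of the family at 9 months. Its levels were low, at 1.59, 1.06, 0.65, 1.64 and 2.79 CPM in 9mCON and 0, 0.765, 0.112, 0.173 and 0.263 CPM in 9mTSCmKO (-2.59 ± 0.60, adjusted p = 0.000678). The groups overlapped, since the highest 9mTSCmKO library (0.765 CPM) lay above the lowest 9mCON library (0.65 CPM). Counts were 0 to 13 per library in 9mTSCmKO, with 3 of the 5 libraries at or under 3 counts, so that the size of this change is poorly fixed. Lamc1, the common gamma chain, was lower (-0.50 ± 0.18, adjusted p = 0.0247), and this call was lost when any 1 of 9mCON replicates 4 and 5 and 9mTSCmKO replicates 3, 4 and 5 was left out (-0.22 to -0.48, adjusted p = 0.0503 to 0.316). The value of -0.22 belongs to the fit without replicate 5 of 9mCON, the library that stood apart in tendon markers.

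**Figure D3:**
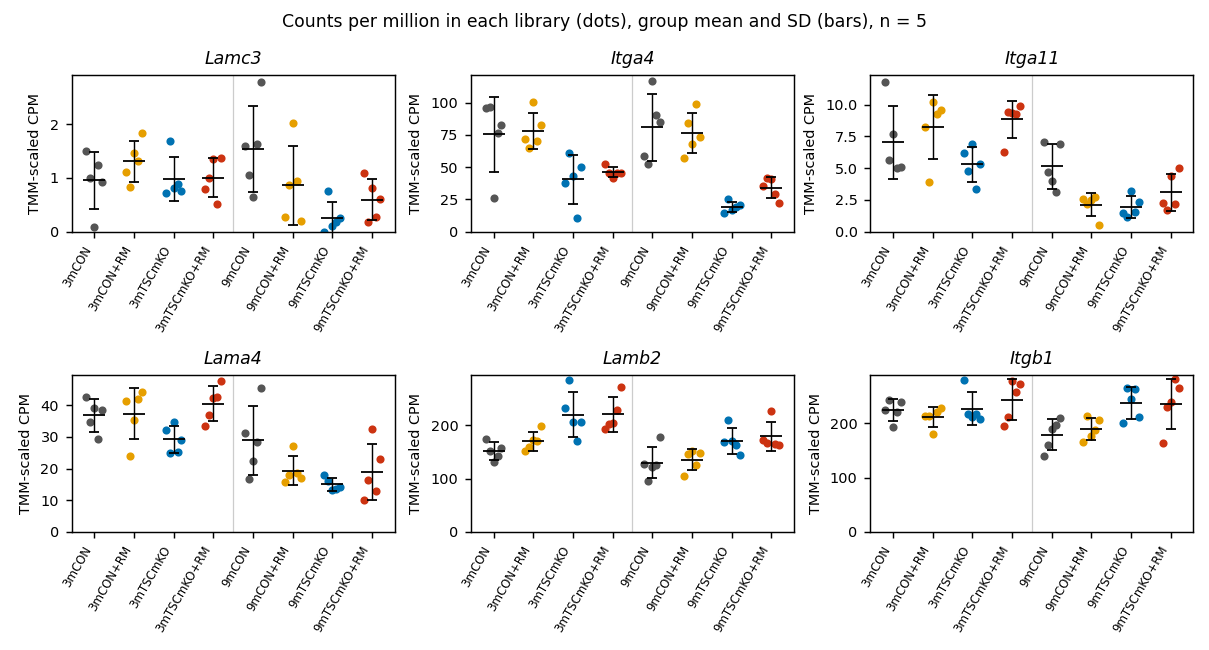
Each panel shows 1 gene in TMM-scaled CPM, with dots for the 5 libraries of each of the 8 groups and bars for the mean and SD; each vertical axis starts at 0. In 9mTSCmKO all 5 Itga4 values lie below all 5 of 9mCON, while Lamb2 and Itgb1 lie higher with some overlap.

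Integrin subunits that bind laminin did not share a direction with the genotype. Itga6 was lower at 9 months without overlap, with 39.9, 39.2, 54.3, 42.2 and 51.9 CPM in 9mCON and 36.4, 29.8, 19.6, 25.6 and 27.6 CPM in 9mTSCmKO (-0.71 ± 0.15, adjusted p = 0.000164). Itga7 was at 79.9 ± 15.1 and 85.8 ± 22.2 CPM and passed at neither age (0.10, adjusted p = 0.649 at 9 months and -0.11, adjusted p = 0.677 at 3 months). Itga3 did not pass either (0.28, adjusted p = 0.152 at 9 months). Their shared partner Itgb1 was higher at 9 months, at 139, 161, 189.7, 197 and 209 CPM in 9mCON against 201, 264, 244, 262 and 211.5 CPM in 9mTSCmKO (0.40 ± 0.13, adjusted p = 0.0117), with replicate 1 of 9mTSCmKO inside the 9mCON range. A fit of these 10 libraries alone gave an adjusted p of 0.0735 for Itgb1.

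Among the collagen-binding subunits, Itga11, known from fibroblasts and tendon, was lower at 9 months, from 7.09, 4.68, 3.98, 3.11 and 6.87 CPM in 9mCON to 1.46, 1.12, 3.18, 1.56 and 2.36 CPM in 9mTSCmKO (-1.41 ± 0.34, adjusted p = 0.00101). One library of 9mTSCmKO, replicate 3, lay within the 9mCON range. Itga1 was lower by less (-0.67 ± 0.20, adjusted p = 0.0084), and did not pass in a fit of these 10 libraries alone. Itga10 (-0.37, adjusted p = 0.267) and Itga2 (-0.18, adjusted p = 0.726) did not pass. The fibroblast markers moved with these genes, as given below.

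Itga4, whose pairs bind the cell adhesion molecule Vcam1 and fibronectin, had the largest change of an integrin. In 9mCON it stood at 58.6, 52.5, 116.5, 90.8 and 85.3 CPM and in 9mTSCmKO at 14.04, 25.1, 16.7, 18.8 and 20.6 CPM (-2.08 ± 0.30, adjusted p = 1.11e-06). All 5 TSCmKO libraries lay below the lowest CON library. At 3 months it stood at 96.2, 96.6, 25.9, 76.5 and 82.3 CPM in 3mCON and 37.6, 61.3, 43.02, 10.7 and 50.1 CPM in 3mTSCmKO (-0.90 ± 0.29, adjusted p = 0.0254), with overlap, since replicate 3 of 3mCON was far below its group. The 3-month call was lost when any 1 of 3mCON replicates 1 and 2 and 3mTSCmKO replicates 1 and 4 was left out (-0.66 to -0.87, adjusted p = 0.0533 to 0.0719). Its relative Itga9 was lower at 3 months without overlap, from 15.96, 10.5, 16.2, 10.7 and 13.2 CPM in 3mCON to 6.92, 7.64, 8.74, 8.13 and 6.98 CPM in 3mTSCmKO (-0.79 ± 0.19, adjusted p = 0.00257), and did not pass at 9 months (-0.28, adjusted p = 0.28).

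Of the beta subunits, Itgb6, which with Itgav binds and activates latent TGF-beta, was lower at both ages without overlap. It stood at 24.2, 26.8, 29.9, 28.7 and 21.97 CPM in 3mCON and 12.9, 19.7, 12.2, 18.6 and 10 CPM in 3mTSCmKO (-0.85 ± 0.18, adjusted p = 0.00049). At 9 months the values were 24.9, 23.5, 29.1, 35.5 and 43.2 CPM in 9mCON and 8.89, 15.4, 14.3, 19.8 and 16.2 CPM in 9mTSCmKO (-1.07 ± 0.18, adjusted p = 8.23e-06). Itgav itself passed at neither age (0.31, adjusted p = 0.194 at 9 months). Itgb8, another partner of Itgav, was lower at 9 months (-1.06 ± 0.40, adjusted p = 0.0345), a call lost when any 1 of 9mCON replicates 1, 3 and 5 and 9mTSCmKO replicates 3, 4 and 5 was left out (-0.86 to -0.97, adjusted p = 0.071 to 0.0983). Itgb7, which pairs with Itga4 on leukocytes, was lower at 9 months (-1.04 ± 0.34, adjusted p = 0.0155), lost without 9mCON replicate 1 (-0.88, adjusted p = 0.0515). Itga2b, the platelet subunit, was higher at 3 months (1.16 ± 0.35, adjusted p = 0.0156), lost when any 1 of 3mTSCmKO replicates 3 and 4 was left out (0.89 to 0.94, adjusted p = 0.072 to 0.0812). The other beta subunits Itgb2, Itgb3, Itgb4 and Itgb5 and the fibronectin receptor subunit Itga5 (0.41, adjusted p = 0.123 at 9 months) passed in neither genotype comparison.

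The 3 binding proteins differed in direction. Itgb1bp1 (ICAP-1), which binds the Itgb1 tail and holds the integrin inactive, was higher in TSCmKO at both ages. It stood at 14.8, 16.6, 17.9, 19.6 and 15.7 CPM in 3mCON and 22.7, 24.6, 22.3, 30.9 and 22.7 CPM in 3mTSCmKO (0.54 ± 0.13, adjusted p = 0.00274), without overlap, and at 19.03 ± 3.66 and 27.5 ± 5.76 CPM (SD, n = 5) at 9 months (0.54 ± 0.13, adjusted p = 0.0015). Itgb3bp, better known as a centromere protein, was lower at both ages (-0.87 ± 0.18, adjusted p = 0.000233, at 9 months and -0.53 ± 0.19, adjusted p = 0.0401, at 3 months), and the 3-month call was lost when any 1 of 3mCON replicates 3 and 4 and 3mTSCmKO replicates 1, 2, 3 and 5 was left out (-0.45 to -0.53, adjusted p = 0.0611 to 0.119). Itgb1bp2 passed at neither age (0.31, adjusted p = 0.0641 at 9 months).

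The difference between the genotype effects at 9 and 3 months passed for 1 of the 34 genes, where 4.94% of all genes passed (3.01% more positive and 1.93% more negative at 9 months). In all, 9 genes of the family had an unadjusted p under 0.05, as did 19.5% of all genes. The gene that passed was Lamc3, at 1.51, 1.001, 0.0826, 1.25 and 0.929 CPM in 3mCON and 0.725, 1.698, 0.822, 0.896 and 0.756 CPM in 3mTSCmKO, with an interaction on the log2 scale of -2.61 ± 0.80, adjusted p = 0.0471. The call was lost in 15 of the 20 fits that each left out 1 library, those without any 1 of 3mCON replicates 2, 3, 4 and 5, 3mTSCmKO replicates 1, 2, 3, 4 and 5, 9mCON replicates 4 and 5 and 9mTSCmKO replicates 1, 3, 4 and 5 (-2.28 to -2.77, adjusted p = 0.0512 to 0.118).

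Other genes of the basement membrane and of integrin signalling, taken from fixed lists, gave a background to these values. Of 12 basement membrane partners tested (collagens of the sheet, nidogens, perlecan, agrin, Sparc), 8 were lower and none higher in 9mTSCmKO, with a median log2 fold change of -0.87. Col4a4, a collagen IV chain, had -1.77 ± 0.28, adjusted p = 3.41e-06, Col15a1 -1.40 ± 0.27, adjusted p = 8.75e-05, the nidogen Nid2 -1.14 ± 0.22, adjusted p = 9e-05 and Sparc, a matrix-binding glycoprotein, -1.05 ± 0.20, adjusted p = 8.65e-05. At 3 months 1 of the 12 passed. Of 8 other laminin receptors, 3 were lower and 1 was higher. Those lower included Sgca, a sarcoglycan (-0.68 ± 0.14, adjusted p = 0.000156), and Bcam, a receptor of Lama5 (-0.70 ± 0.20, adjusted p = 0.00434).

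Of 10 other integrin ligands tested, fibronectin (Fn1, -1.67 ± 0.39, adjusted p = 0.00101) and vitronectin (Vtn, -0.89 ± 0.21, adjusted p = 0.000735) were lower and osteopontin (Spp1, 1.56 ± 0.50, adjusted p = 0.0137) was higher at 9 months. Of 23 adaptors and signalling genes, 7 were lower and 3 higher. The talin Tln2 (-0.71 ± 0.22, adjusted p = 0.00877) and Parva (-0.64 ± 0.16, adjusted p = 0.00203), which link integrin tails to actin, were lower, while Lims1, a partner of Parva (0.67 ± 0.16, adjusted p = 0.00115), and Fblim1, which binds filamin (0.81 ± 0.24, adjusted p = 0.00786), were higher. These lists therefore held genes of either direction, except for the basement membrane partners.

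Integrins of leukocytes whose symbols end in other letters lie outside the rule. Itgal, the alpha subunit of LFA-1 on lymphocytes, was at 0.676 to 1.23 CPM in 3mCON and 2.74 to 8.84 CPM in 3mTSCmKO (2.61 ± 0.32, adjusted p = 4.92e-08), and at 0.487 to 1.89 CPM in 9mCON and 5.03 to 7.37 CPM in 9mTSCmKO (2.39 ± 0.31, adjusted p = 9.66e-08). The groups did not overlap at either age, in contrast to its partner Itgb2, which passed in neither (0.24, adjusted p = 0.761 at 3 months and 0.50, adjusted p = 0.383 at 9 months). The lymphocyte markers tested, 2 of 4, summed to 1.24 to 1.82 CPM in 3mCON and 1.12 to 6.48 CPM in 3mTSCmKO, with 1 of 2 higher at each age. Their part in the result was not tested. The symbol Itgam belongs to 2 entries at the same locus, whose reads cannot be told apart, and it is not reported.

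Markers of other cell types moved in the same comparison. At 9 months 5 of 7 fibroblast markers were lower in TSCmKO, and their summed level was 1055 to 2104 CPM in 9mCON and 352 to 1200.0 CPM in 9mTSCmKO. Tendon markers were lower in 4 of 6 cases (44.7 to 361 against 15.2 to 47.1 CPM), pericyte and smooth muscle markers in 4 of 6 (639 to 949 against 389 to 682 CPM) and endothelial markers in 4 of 7 (302 to 426.5 against 246 to 353 CPM). Adipocyte markers were lower in 2 of 4 cases (6.82 to 17.1 against 2.42 to 5.83 CPM), and a Schwann cell marker in 1 of 6 (116 to 227 against 69.8 to 198 CPM). Fiber markers were lower in 3 of 5. Of 3 platelet markers 1 was higher. Macrophage markers included 1 of 7 that was higher (30.9 to 99.7 against 28.6 to 63.8 CPM). Satellite cell markers passed in 0 of 4 cases by edgeR, DESeq2 or limma, with 0 at an unadjusted p under 0.05. No list had a defining marker at 0 in these 2 groups apart from Ly6g of the neutrophil list. Their part in the results for laminins and integrins was not tested. Without replicate 5 of 9mCON, 15 of the 34 genes passed.

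At 3 months, of the 7 fibroblast and 7 macrophage markers, edgeR called 0, and none had an unadjusted p under 0.05 or passed by DESeq2 or limma. Of 7 endothelial markers edgeR called 0 (1 at an unadjusted p under 0.05, 1 by DESeq2, 0 by limma) and of 5 fiber markers 0 (1, 1 and 1 likewise), while 1 of 6 tendon and 1 of 6 pericyte markers were lower and 1 of 3 platelet markers was higher (1.964 to 7.84 against 2.81 to 11.4 CPM). The summed fibroblast level was 1509 to 3345 CPM in 3mCON and 1138 to 1970.0 CPM in 3mTSCmKO. The only neutrophil marker that could be tested reached 20.2 CPM in replicate 4 of 3mTSCmKO and at most 0.616 CPM in 3mCON. Without that library 6 of the 34 genes passed at 3 months, and Lamb3, Itgb6, Itga9, Lamb2 and Itgb1bp1 were among them.

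Most of the genes called with rapamycin in TSCmKO muscle were higher, but over all 34 genes the split at 9 months was close to even. In 9mTSCmKO, 6 of the 34 genes passed (17.6%, against 32.6% of all genes), 5 of them higher (15.8% of all genes were higher) and 1 lower (16.8%). In 3mTSCmKO, 7 passed (20.6%, against 23.6% of all genes), 6 higher (10.6%) and 1 lower (13.0%). Groups did not overlap for 4 of the 34 genes at 9 months (15.1% of all genes) and for 6 at 3 months (21.1%). Over all 34 genes, 18 fold changes were positive and 16 negative at 9 months, with a median of 0.05 (-0.04 for all genes), and 23 were positive and 11 negative at 3 months, with a median of 0.21 (0.01). Both called shares of the family were below those of all genes. These comparisons share their 3mTSCmKO and 9mTSCmKO libraries with the genotype comparisons, so that an opposite sign in both is not independent evidence.

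The genes that rose in either TSCmKO comparison were the 7 genes Itga4, Itga7, Itga9, Itgb6, Lama5, Lamb3 and Lamc1. RefSeq gives promoter entries for 23 of the 34 genes, and for Itga4, Itga9, Itgb6, Lama5 and Lamb3 among these 7. The 250 bases upstream of their starts are shown (build GRCm38.p6, in the direction of the gene), because these genes rose with rapamycin in TSCmKO, with matches to 4 short motifs, searched on both strands, in capitals: CAGCTG (an E-box of the kind that myogenic factors bind), TGACTCA (AP-1), GGGCGG (Sp1) and TGTGGT (Runx). Where RefSeq lists 2 starts, for Itgb6 and Lamb3, the window with the lower coordinates is shown. Itgb6 is on the minus strand, so that its window belongs to the inner start. The window of its outer start, chr2:60722604-60722853, is not shown. The windows are chr1:193301744-193301993 (plus strand) for Lamb3, chr2:180225860-180226109 (minus) for Lama5, chr2:79255176-79255425 (plus) for Itga4, chr9:118711442-118711691 (plus) for Itga9 and chr2:60673694-60673943 (minus) for Itgb6.
Lamb3: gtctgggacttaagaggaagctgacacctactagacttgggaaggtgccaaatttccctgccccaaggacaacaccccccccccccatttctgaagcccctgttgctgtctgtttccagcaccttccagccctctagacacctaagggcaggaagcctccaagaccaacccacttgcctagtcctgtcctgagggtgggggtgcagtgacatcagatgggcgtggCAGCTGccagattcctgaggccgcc
Lama5: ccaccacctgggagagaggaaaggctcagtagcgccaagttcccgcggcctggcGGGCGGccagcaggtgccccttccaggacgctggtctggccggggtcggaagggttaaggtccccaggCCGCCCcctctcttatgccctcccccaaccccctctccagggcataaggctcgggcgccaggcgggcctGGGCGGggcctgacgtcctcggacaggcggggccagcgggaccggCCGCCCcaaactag
Itga4: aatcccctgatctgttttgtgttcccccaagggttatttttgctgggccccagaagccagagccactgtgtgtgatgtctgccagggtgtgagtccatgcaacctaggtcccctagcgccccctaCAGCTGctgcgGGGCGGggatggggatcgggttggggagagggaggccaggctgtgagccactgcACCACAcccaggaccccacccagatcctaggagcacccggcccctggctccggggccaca
Itga9: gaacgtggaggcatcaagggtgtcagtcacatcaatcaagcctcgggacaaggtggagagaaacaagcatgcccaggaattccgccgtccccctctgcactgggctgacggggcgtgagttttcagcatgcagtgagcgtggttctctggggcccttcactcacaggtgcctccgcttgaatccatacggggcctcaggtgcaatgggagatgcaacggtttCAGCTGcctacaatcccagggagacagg
Itgb6: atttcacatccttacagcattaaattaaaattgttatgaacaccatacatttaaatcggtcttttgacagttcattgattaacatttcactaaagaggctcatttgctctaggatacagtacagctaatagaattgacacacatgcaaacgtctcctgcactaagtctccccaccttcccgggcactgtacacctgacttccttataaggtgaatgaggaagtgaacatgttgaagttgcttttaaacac

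CAGCTG was found upstream of Lamb3, Itga4 and Itga9, in 7 of the 23 genes of the family with an entry and in 13.0% of 32851 promoters of the same length. GGGCGG was found for Lama5 and Itga4, in 7 of the 23 genes and in 32.7% of all promoters. TGTGGT was found for Itga4, in 2 of the 23 genes and in 14.0% of all promoters, and TGACTCA in none of the 23 and in 4.46% of all promoters. A match of letters is not a site, and the lack of one says only that these letters are not in this window. The starts of Lamb3, Itga9 and Itgb6 lie inside the span that GENCODE gives the gene, so that these windows are not upstream of its outermost start.

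Lamb3 rose with rapamycin in TSCmKO at both ages without overlap. From 1.12, 1.11, 1.34, 1.66 and 0.936 CPM in 3mTSCmKO it was at 4.36, 3.11, 3.88, 2.83 and 3.08 CPM in 3mTSCmKO+RM (1.46 ± 0.19, adjusted p = 2.92e-07). From 1.82, 1.94, 2.01, 1.91 and 1.14 CPM in 9mTSCmKO it was at 4.303, 3.52, 3.04, 2.76 and 2.56 CPM in 9mTSCmKO+RM (0.88 ± 0.19, adjusted p = 0.000502). The treated values at 3 months ran from 2.83 to 4.36 CPM, against 2.87 to 5.42 CPM in 3mCON. The rise was larger in 3mTSCmKO than in 3mCON, where Lamb3 was at 4.54 ± 1.02 and 6.08 ± 0.912 CPM (0.40, adjusted p = 0.44), and the difference of the effects was 1.06 ± 0.26, adjusted p = 0.0138. At 9 months that difference did not pass (0.51, adjusted p = 0.267), and in CON the change was 0.37, adjusted p = 0.184.

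Lama5 rose in TSCmKO at both ages. It stood at 75.9, 67.2, 68.3, 86.2 and 86.7 CPM in 3mTSCmKO+RM against 43.5, 53.4, 49.2, 42.5 and 52.9 CPM with vehicle (0.67 ± 0.13, adjusted p = 0.000121), and at 61.03, 52.8, 73.8, 43.7 and 50.9 CPM in 9mTSCmKO+RM against 38.1, 43.6, 39.2, 35.5 and 36.5 CPM (0.55 ± 0.13, adjusted p = 0.00103). No treated library fell into the vehicle range at either age. In CON the values were 61.2 ± 4.17 and 79.97 ± 6.05 CPM at 3 months, again without overlap but not past the threshold (0.39, adjusted p = 0.195), and 65.1 ± 16.9 and 82.2 ± 9.72 CPM at 9 months (0.33, adjusted p = 0.0825). The interaction with genotype did not pass at either age (0.28, adjusted p = 0.5 and 0.22, adjusted p = 0.528). Lamc1 rose in 3mTSCmKO (0.52 ± 0.18, adjusted p = 0.0297), a call lost when any 1 of 3mTSCmKO replicates 3 and 4 and 3mTSCmKO+RM replicates 3, 4 and 5 was left out (0.47 to 0.51, adjusted p = 0.0546 to 0.0782). Lama2, Lama4, Lamb1 and Lamb2 passed in neither TSCmKO comparison with rapamycin. For Lama2 the change was 0.47, adjusted p = 0.075, at 3 months, and for Lamb2 it was 0.00, adjusted p = 0.993.

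Itga7 (at chr10:128933818-128958282, plus strand, protein-coding) was higher with rapamycin in all 4 settings, past the threshold in 3 of them. It went from 76.8, 97.8, 66.2, 43.7 and 75.8 CPM in 3mTSCmKO to 132, 144, 145, 211 and 158 CPM in 3mTSCmKO+RM (1.13 ± 0.16, adjusted p = 1.41e-06). It went from 52.3, 110.0, 101, 84.8 and 80.7 CPM in 9mTSCmKO to 133, 166, 178, 152 and 150.2 CPM in 9mTSCmKO+RM (0.86 ± 0.16, adjusted p = 7.26e-05). All treated libraries lay above all vehicle libraries at each age. It rose from 71.1, 64.3, 81.7, 78.2 and 104 CPM in 9mCON to 126, 111.5, 112, 123 and 106.5 CPM in 9mCON+RM (0.53 ± 0.16, adjusted p = 0.0245), a call lost when any 1 of 9mCON replicates 1 and 2 and 9mCON+RM replicate 4 was left out (0.47 to 0.51, adjusted p = 0.0502 to 0.0696). In 3mCON the values were 77.9 ± 8.78 and 110.3 ± 11.2 CPM, without overlap but not past the threshold (0.50, adjusted p = 0.174). Whether the effect differs between genotypes was tested and did not pass at 3 months (0.63 ± 0.23, adjusted p = 0.133) or at 9 months (0.33 ± 0.23, adjusted p = 0.436).

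Neither of the other laminin-binding subunits rose with Itga7. Itga3 did not pass with rapamycin in 3mTSCmKO (0.18, adjusted p = 0.433) or 9mTSCmKO (-0.21, adjusted p = 0.295). Itga6 was at 39.6 ± 3.94 and 33.8 ± 3.22 CPM without and with rapamycin in 3mTSCmKO (-0.23, adjusted p = 0.268), at 27.8 ± 6.11 and 21.6 ± 4.501 CPM in 9mTSCmKO (-0.36, adjusted p = 0.0523), and fell from 39.9, 39.2, 54.3, 42.2 and 51.9 CPM in 9mCON to 25.7, 27.5, 44.6, 30.2 and 28.8 CPM in 9mCON+RM (-0.54 ± 0.15, adjusted p = 0.0116). Replicate 3 of 9mCON+RM lay within the vehicle range. A fit of the 10 libraries of 9mCON and 9mCON+RM alone gave an adjusted p of 0.0826 for Itga6. Per length, Itga7 was 1.56 (1.32 to 1.704) times Itga6 in 3mCON (median and range of TPM ratios), against 2.37 (2.05 to 2.83) in 3mCON+RM, and in the mutant it was 1.696 (0.92 to 2.72) untreated against 3.92 (3.41 to 6.19) with rapamycin. At 9 months it was 1.65 (1.503 to 1.87) in 9mCON, against 3.74 (2.38 to 5.16) in 9mCON+RM, and in the mutant it was 2.77 (1.53 to 5.24) untreated against 6.28 (5.87 to 9.96) with rapamycin. In TSCmKO and CON alike the median was higher with rapamycin, and this ratio was not tested. Itgb1, the partner of both, did not pass with rapamycin in any group, at 0.10, -0.01, -0.08 and 0.08 on the log2 scale in 3mTSCmKO, 9mTSCmKO, 3mCON and 9mCON.

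**Figure D4:**
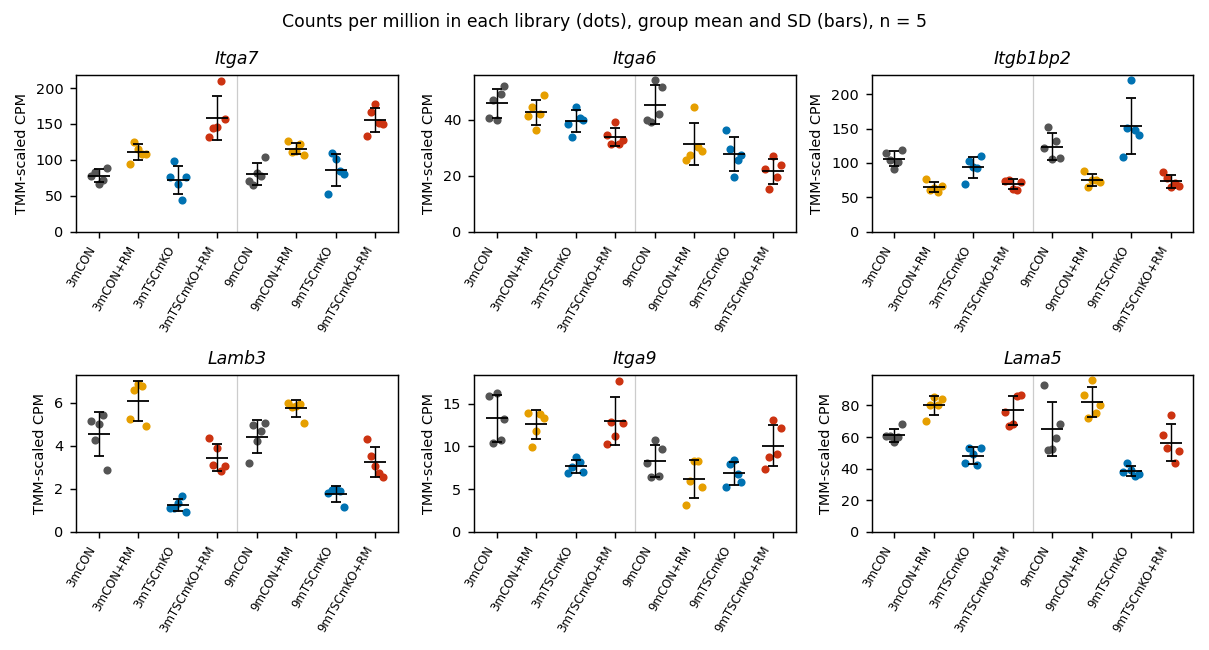
Each panel shows 1 gene in TMM-scaled CPM, with dots for the 5 libraries of each of the 8 groups and bars for the mean and SD; each vertical axis starts at 0. Itga7, Lamb3 and Lama5 lie higher in 3mTSCmKO+RM and 9mTSCmKO+RM than in the vehicle groups without overlap, and Itgb1bp2 lies lower in 9mTSCmKO+RM, 9mCON+RM and 3mCON+RM without overlap.

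Itga9 rose at 3 months without overlap, from 6.92, 7.64, 8.74, 8.13 and 6.98 CPM in 3mTSCmKO to 10.3, 12.8, 11.2, 17.7 and 12.8 CPM in 3mTSCmKO+RM (0.75 ± 0.19, adjusted p = 0.00344). It went from 5.25, 7.94, 8.43, 6.81 and 5.82 CPM in 9mTSCmKO to 7.36, 8.76, 13.1, 9.099 and 12.2 CPM in 9mTSCmKO+RM with overlap (0.57 ± 0.20, adjusted p = 0.0257), and this call was lost when any 1 of 9mTSCmKO replicates 1 and 5 and 9mTSCmKO+RM replicates 3 and 5 was left out (0.45 to 0.49, adjusted p = 0.0728 to 0.0967). In 9mCON it was at 8.297 ± 1.904 and 6.195 ± 2.19 CPM (-0.43, adjusted p = 0.183), and the rapamycin effects in the genotypes differed at 9 months by 0.99 ± 0.28, adjusted p = 0.0334. That call was lost when any 1 of 9mCON replicates 3 and 5, 9mCON+RM replicates 1 and 5, 9mTSCmKO replicates 1, 4 and 5 and 9mTSCmKO+RM replicates 3 and 5 was left out (0.81 to 0.98, adjusted p = 0.0513 to 0.0791).

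Itga4 rose at 9 months, from 14.04, 25.1, 16.7, 18.8 and 20.6 CPM in 9mTSCmKO to 35.2, 41.5, 41.1, 29.1 and 22.5 CPM in 9mTSCmKO+RM (0.83 ± 0.30, adjusted p = 0.0297). Replicate 5 of the treated group lay inside the vehicle range. The call was lost when any 1 of 9mTSCmKO replicates 1, 3 and 4 and 9mTSCmKO+RM replicates 2 and 3 was left out (0.73 to 0.81, adjusted p = 0.0521 to 0.0842), and Itga4 did not pass in 3mTSCmKO (0.19, adjusted p = 0.701). Itgb6 rose at 3 months without overlap, from 12.9, 19.7, 12.2, 18.6 and 10 CPM in 3mTSCmKO to 28.9, 23.9, 25.9, 24.4 and 24.9 CPM in 3mTSCmKO+RM (0.80 ± 0.18, adjusted p = 0.000758). In 3mCON it was at 26.3 ± 3.24 and 24.1 ± 4.58 CPM, and the difference between the effects was 0.93 ± 0.25, adjusted p = 0.0271, lost when any 1 of 3mCON replicate 3, 3mCON+RM replicates 1 and 2 and 3mTSCmKO replicates 1, 3 and 5 was left out (0.81 to 0.90, adjusted p = 0.0524 to 0.0645). In 9mTSCmKO its change was 0.31, adjusted p = 0.181.

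Itgb1bp2 (chrX:101449088-101453541, plus strand, protein-coding) was the member of the family that fell with rapamycin in all 4 comparisons. It went from 109, 150.2, 220.4, 148 and 141 CPM in 9mTSCmKO to 86.4, 77.5, 64.7, 70.2 and 66.2 CPM in 9mTSCmKO+RM (-1.07 ± 0.14, adjusted p = 1.29e-07) and from 122, 152, 105, 132 and 107 CPM in 9mCON to 88.3, 65.1, 74.4, 74.7 and 72.7 CPM in 9mCON+RM (-0.72 ± 0.14, adjusted p = 0.000469). It went from 115, 104, 90.9, 101 and 118 CPM in 3mCON to 76.9, 60.5, 63.6, 57.9 and 66.7 CPM in 3mCON+RM (-0.70 ± 0.14, adjusted p = 0.00566). The groups did not overlap in any of these 3 comparisons. Replicate 1 of 3mTSCmKO lay within the treated range, and Itgb1bp2 went from 68.5, 103, 93.6, 91.8 and 109.9 CPM in 3mTSCmKO to 73.9, 75.6, 62.1, 60.8 and 72.3 CPM in 3mTSCmKO+RM (-0.44 ± 0.14, adjusted p = 0.0149), and this call was lost without 3mTSCmKO replicate 5 (-0.37, adjusted p = 0.0561). The interaction with genotype did not pass at either age (-0.35, adjusted p = 0.295 at 9 months and 0.26, adjusted p = 0.591 at 3 months).

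The partner lists and cell type markers moved as follows in these 2 comparisons. Of the 12 basement membrane partners, edgeR called 0 in 9mTSCmKO (0 at an unadjusted p under 0.05, and 0 by DESeq2 and by limma) and 0 in 3mTSCmKO (4 at an unadjusted p under 0.05, 0 by DESeq2 and 1 by limma). Of 8 other laminin receptors, 2 rose in 9mTSCmKO (Sgca, 0.66 ± 0.14, adjusted p = 0.000345, and Sgcd, another sarcoglycan, 0.90 ± 0.24, adjusted p = 0.00425), and 2 rose and 1 fell in 3mTSCmKO. Of 10 other ligands, Spp1 (-3.34 ± 0.57, adjusted p = 2.47e-05) and Thbs4 (-1.25 ± 0.38, adjusted p = 0.0103), a thrombospondin of muscle and tendon, fell in 9mTSCmKO, and in 3mTSCmKO Fn1 rose (1.12 ± 0.38, adjusted p = 0.0301) and Spp1 fell (-1.63 ± 0.55, adjusted p = 0.0263). Of 23 adaptors, 2 rose and 5 fell in 9mTSCmKO, and 1 rose and 5 fell in 3mTSCmKO. Satellite cell markers summed to 12.2 to 23.2 CPM in 9mTSCmKO against 35.9 to 43.3 CPM in 9mTSCmKO+RM (2 of 4 higher), and to 17.01 to 24.4 and 32.4 to 52.3 CPM at 3 months (1 of 4 higher). Fiber markers were higher in 2 of 5 cases at each age. Fibroblast markers were higher in 2 of 7 cases at 3 months (1138 to 1970.0 against 1630.0 to 3405 CPM) while at 9 months edgeR called 0 (1 at an unadjusted p under 0.05, 0 by DESeq2 and 0 by limma). Pericyte markers were higher in 2 of 6 cases at 9 months (389 to 682 against 458 to 955.5 CPM), and macrophage markers were lower in 2 of 7 at 9 months and higher in 2 of 7 at 3 months. Of 7 endothelial markers 1 was higher and 1 lower at 9 months (246 to 353 against 213 to 416 CPM). Platelet markers were lower in 2 of 3 cases at 9 months and in 1 at 3 months. At 3 months 1 of 6 tendon markers was higher, and 1 of 2 lymphocyte markers and the neutrophil marker were lower. Their part in the results was not tested.

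In CON muscle more genes passed with rapamycin at 9 months than at 3 months. At 9 months 8 of the 34 genes passed (23.5%, against 11.8% of all genes), 7 lower (6.82% of all genes) and 1 higher (5.03%), and in 7 genes the groups did not overlap (6.64% of all genes). The median log2 fold change was -0.35, against -0.02 for all genes. At 3 months 1 gene, Itgb1bp2, passed (2.94%, against 0.679% of all genes, 0.362% higher and 0.318% lower), with 5 of the 34 at an unadjusted p under 0.05 (8.98% of all genes), and in 4 the groups did not overlap (5.41% of all genes). A fit of the 10 libraries compared alone called 4 genes at 9 months (4.28% of all genes under that fit) and 3 at 3 months (2.79%). The difference between these ages was not tested. Satellite cell markers summed to 17.8 to 27.5 CPM in 9mCON and 38.9 to 51.3 CPM with rapamycin, and to 22.1 to 26.4 and 31.4 to 37.1 CPM at 3 months, without overlap and with 1 of 4 higher at each age. Over these 4 markers the median log2 fold change was only 0.18 at 9 months and 0.09 at 3 months. Fiber markers summed to 117000.0 to 125400.0 CPM in 9mCON and 141000.0 to 150500.0 CPM in 9mCON+RM, where edgeR called 0 of 5 (2 at an unadjusted p under 0.05, 0 by DESeq2 and 0 by limma). Their part in the rise of Itga7 in 9mCON and in the other results was not tested.

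Among the 7 genes that fell in 9mCON was Itgb2, the beta subunit of leukocyte integrins. It fell from 2.66, 0.377, 1.38, 0.873 and 3.92 CPM in 9mCON to 0.27, 0.514, 0.651, 0.688 and 0.405 CPM in 9mCON+RM (-1.90 ± 0.54, adjusted p = 0.0162), and the call was lost without 9mCON replicate 5 (-1.42, adjusted p = 0.0932). Itgb7 fell from 2.72, 1.81, 1.38, 1.97 and 1.704 CPM in 9mCON to 0.675, 0.463, 1.16, 0.946 and 0.135 CPM in 9mCON+RM without overlap (-1.54 ± 0.37, adjusted p = 0.00462). Itga11 fell from 7.09, 4.68, 3.98, 3.11 and 6.87 CPM in 9mCON to 2.57, 2.21, 2.46, 2.75 and 0.54 CPM in 9mCON+RM, also without overlap (-1.30 ± 0.34, adjusted p = 0.0095). Its rapamycin effect differed between the genotypes at 9 months, by 1.98 ± 0.48, adjusted p = 0.0123, and it was at 1.94 ± 0.834 CPM in 9mTSCmKO against 3.09 ± 1.49 CPM in 9mTSCmKO+RM.

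Lamb1, the beta chain of most laminins outside the synapse, was the 1 laminin that passed here, falling from 29.4, 16.3, 23.96, 23.5 and 37.2 CPM in 9mCON to 8.98, 12.7, 20.8, 15.04 and 4.25 CPM in 9mCON+RM (-1.09 ± 0.28, adjusted p = 0.0073). Only replicate 3 of 9mCON+RM reached the vehicle range. A fit of these 10 libraries alone gave an adjusted p of 0.092 for Lamb1. Itga10, a collagen-binding subunit of cartilage, fell from 1.93 ± 0.285 CPM to 1.09 ± 0.228 CPM (-0.83 ± 0.28, adjusted p = 0.0415), lost when any 1 of 9mCON replicates 1 and 5 and 9mCON+RM replicates 1, 2 and 4 was left out (-0.74 to -0.82, adjusted p = 0.0732 to 0.123). In the same comparison all 7 fibroblast markers were lower (1055 to 2104 against 172 to 797 CPM), as were 5 of 6 tendon markers (44.7 to 361 against 12.8 to 35.7 CPM), 6 of 7 macrophage markers (30.9 to 99.7 against 6.95 to 24.7 CPM) and 1 of 3 platelet markers. Replicate 5 of 9mCON had the highest sums of the fibroblast, tendon and macrophage lists. Their part in the results was not tested. Of the partner lists, 7 of 12 basement membrane genes and 5 of 10 other ligands were lower, and without replicate 5 of 9mCON 7 of the 34 genes passed.

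Across both ages, the difference between the rapamycin effects in TSCmKO and CON passed for Itga11 and Itga9 at 9 months (2 genes, where 4.87% of all genes passed, 2.56% more positive and 2.31% more negative) and for Lamb3 and Itgb6 at 3 months (2 genes, where 3.45% passed, 1.36% and 2.09% likewise). All 4 were more positive in TSCmKO. Without replicate 2 of 9mCON 4 genes passed at 9 months. Itga11 and Lamb3 kept their calls in every fit that left out 1 library, but Itga11 lost it when only the groups compared were fitted (1.98, adjusted p = 0.0609) and Lamb3 with limma (0.95, adjusted p = 0.076). In the same test, 1 of 7 fibroblast markers and 2 of 12 basement membrane partners were more positive in TSCmKO at 9 months. At 3 months 1 of 6 tendon markers and 1 of 8 other laminin receptors were more positive. The neutrophil marker and 1 of 23 adaptors were more negative. Their part in the result was not tested.

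After rapamycin, TSCmKO muscle differed from untreated CON muscle in 13 genes of the family at 9 months (38.2%, against 31.9% of all genes), 9 lower (16.2% of all genes) and 4 higher (15.7%). At 3 months 6 genes differed (17.6%, against 16.7%), 3 lower (7.71%) and 3 higher (8.98%), and 3 in all passed without replicate 4 of 3mCON or replicate 5 of 3mTSCmKO+RM. Of the 13, the 4 genes Itga7, Itgb1bp2, Itga2b and Lamb1 had not passed between the vehicle groups at 9 months, and of the 6 the 3 genes Itga7, Itga6 and Itgb1bp2 had not at 3 months. At both ages Itga7 was higher (0.96 ± 0.16, adjusted p = 1.28e-05, at 9 months and 1.02 ± 0.16, adjusted p = 1.34e-05, at 3 months), Lamb2 was higher (0.47 and 0.54) and Itgb1bp2 was lower (-0.76 and -0.62). Itga2b was higher at both (1.07 and 1.11), and its 3-month call was lost when any 1 of 3mCON replicates 1, 2 and 4 and 3mTSCmKO+RM replicates 2 and 5 was left out (1.001 to 1.09, adjusted p = 0.0517 to 0.067). Itga4 was lower at 9 months, at 35.2, 41.5, 41.1, 29.1 and 22.5 CPM against a 9mCON range of 52.5 to 116.5 CPM (-1.25 ± 0.30, adjusted p = 0.0012), as were Itgb6 (-0.76 ± 0.18, adjusted p = 0.00103) and Itga6 (-1.08 ± 0.15, adjusted p = 3.69e-07). Lamb3 and Lama5, which were lower with vehicle, did not pass after rapamycin at 9 months (-0.46, adjusted p = 0.0503 and -0.21, adjusted p = 0.225), which does not show that they were equal to CON. At 9 months 6 of 7 fibroblast markers (1055 to 2104 in 9mCON against 456 to 806 CPM), 4 of 6 tendon, 4 of 7 macrophage, 1 of 7 endothelial, 1 of 6 Schwann cell, 1 of 3 platelet and 1 of 4 adipocyte markers were lower, as were 10 of 12 basement membrane partners, and 1 of 4 satellite cell markers was higher. At 3 months 4 of 7 macrophage markers, 1 of 6 tendon, 1 of 5 fiber and 1 of 4 satellite cell markers and 2 of 12 basement membrane partners were higher. Their part in the result was not tested. Treated TSCmKO and untreated CON differ in genotype and in treatment, and this comparison alone cannot tell these effects apart. The genotype and rapamycin comparisons given above show each separately.

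With age, 14 genes differed in TSCmKO (41.2%, against 37.4% of all genes), 13 lower (18.3% of all genes) and 1 higher (19.1%) at 9 months. Laminins made up 7 of the 13, and 5 genes did not overlap between the ages (18.6% of all genes). Lama4 fell from 32.02, 24.9, 34.6, 25.3 and 28.9 CPM in 3mTSCmKO to 17.9, 16.2, 13.2, 13.5 and 14.3 CPM in 9mTSCmKO (-0.95 ± 0.22, adjusted p = 0.00103), Lamb1 from 35.7 ± 3.995 to 18.6 ± 4.47 CPM (-0.94 ± 0.27, adjusted p = 0.00585) and Lamc1 from 101.5 ± 6.999 to 61.3 ± 9.28 CPM (-0.73 ± 0.18, adjusted p = 0.00176). Each of these 3 was without overlap. Itga11 (-1.44 ± 0.33, adjusted p = 0.000923) and Itga1 (-0.74 ± 0.20, adjusted p = 0.00409) fell likewise, and Itgb1bp2 was higher at 9 months (0.72 ± 0.14, adjusted p = 9.36e-05). With insert size as a term 9 genes passed (12.57% of all genes under that fit), and 9 did so without replicate 4 of 9mTSCmKO. Fibroblast markers were lower with age in 5 of 7 cases, endothelial markers in 5 of 7 and adipocyte markers in 4 of 4. Tendon markers were lower in 4 of 6 cases (with 1 higher), pericyte and smooth muscle markers in 3 of 6 and fiber markers in 2 of 5. The neutrophil marker was lower and 1 of 6 Schwann cell markers was higher. Of the macrophage, platelet and lymphocyte markers, 1 of each list was higher and 1 lower. Of 12 basement membrane partners, 8 were lower. Their part in the result was not tested. In CON none of the 34 genes passed with edgeR (1.02% of all genes, 0.679% higher and 0.34% lower), 1 did not overlap (Itgb3bp, against 3.26% of all genes), while 10 had an unadjusted p under 0.05 (17.6% of all genes), and DESeq2 and limma called 3 each. Without replicate 5 of 9mCON the edgeR count was 5, and without replicate 5 of 3mCON it was 1. The difference between the genotypes in the age effect is the interaction given above, which passed for Lamc3 alone.

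There were 8 genes, Itga2, Itga3, Itga5, Itga8, Itgav, Itgb3, Itgb5 and Lama2, that passed in 0 of the 13 comparisons with edgeR. DESeq2 or limma called Itga2, Itga5, Itgb3 or Lama2 in some of them. They include the fiber laminin chain Lama2 and the pair Itgav and Itgb5, which binds vitronectin. The closest was Itga5 after rapamycin in 9mCON (-0.62, adjusted p = 0.0566). At the threshold of the rule, Itgb4 reached 1 CPM in 14 libraries, Lamc3 in 15 and Itga2b in 18, while Lama1 reached it in 1 library, with a highest value of 1.49 CPM, and Itgb2l in 0 libraries, with a highest value of 0.352 CPM. Of the 31-base words in the transcripts of each of the 34 genes, at most 0.846% (Itga4) occurred in transcripts of another gene.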

How the data were processed

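The authors extracted poly(A) RNA from whole EDL muscle, sequenced single-end reads, trimmed adapters with cutadapt 1.9.1 and assigned reads with kallisto 0.43.1 to protein-coding Ensembl transcripts of GRCm38, sharing a read among all transcripts it matched. The deposited tables hold estimated counts and TPM per gene, with 1 column per library and 0 columns without a label. All estimated counts were listed as whole numbers. Sharing of reads between transcripts makes TPM depend on short transcripts.

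Genes with at least 1 CPM in 5 or more of 40 libraries (13543 genes, at least 99.8% of counts) were fitted with edgeR 4.0.16 in R 4.3.3 (TMM factors, 8 group means, robust quasi-likelihood F-tests, two-sided, Benjamini-Hochberg over all genes, threshold 0.05) in 13 contrasts. Standard errors were derived from F. Groups came from the labels. Alternatives were DESeq2 1.42.0, limma 3.58.1 on log2(TPM + 1), upper-quartile scaling, no filter, only the groups compared, insert size as a term, a replicate block and leaving out each library. The test was checked on simulated data.

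The genes and lists were chosen with earlier results of these data known. Named genes were up to 6 with the largest change past the threshold in each genotype and TSCmKO rapamycin comparison, all past it in an interaction, the highest of each class, the muscle laminins and their receptors, the binding proteins and those at the threshold of the rule. From the other lists, up to 4 genes with the largest change at 9 months were named. Some genes that these rules name are not reported here. Others were chosen after their values were seen. Positions are from GENCODE M21 and promoters from RefSeq (GRCm38.p6). Counts limit precision for genes near 3 counts per library. Same-numbered replicates did not deviate together (correlations -0.363 to 0.412, median -0.00404, 140 pairs), so that numbers were not used as pairs.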

Additional observations from a re-analysis of the deposited data

Results flagged for a closer look

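For 21 named genes in 8 groups (168 sets of 5 libraries), the highest or lowest library was compared with its neighbour by Dixon's ratio. In 17 sets it stood apart. Chance gives about 1 in 20 for independent, normally distributed sets. These sets reuse the same 40 libraries, so that the 17 cannot be set against that rate. Of the 17, 7 were in 9mCON+RM, 3 in 3mTSCmKO, 2 each in 3mCON and 9mTSCmKO+RM, and 1 each in 3mTSCmKO+RM, 9mCON and 9mTSCmKO.

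In 9mCON+RM, replicate 3 stood above the others for Itga6 (44.6 CPM, next 30.2), Lama4 (27.1, next 18.6), Itga5 (17.7, next 9.37) and Itga2b (0.941, next 0.608). The same library had the highest marker sums of its group for endothelium (484 CPM, others 301 to 353), pericytes and smooth muscle (954, others 573 to 771), Schwann cells (224.5, others 44.3 to 113), tendon (35.7, others 12.8 to 22.2), macrophages (24.7, others 6.95 to 17.3), adipocytes (20.6, others 2.005 to 8.85) and fibroblasts (797, others 172 to 768), whose part in these values was not tested. In the same group replicate 5 stood below for Itga11 (0.54 CPM, next 2.21) and Lamb3 (5.06, next 5.81), and replicate 1 for Itgav (19.0, next 35.7). In 3mTSCmKO, replicate 4 stood above for Itgb1bp1 (30.9 CPM, next 24.6), replicate 1 for Itgb1 (279.7, next 217) and replicate 2 for Lamc3 (1.70, next 0.896).

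In 3mCON, replicate 3 stood below for Itga4 (25.9 CPM, next 76.5) and replicate 2 for Itga5 (10.4, next 13.8). In 9mCON, replicate 2 stood above for Itgb1bp1 (25.4 CPM, next 18.5). Among the treated and vehicle TSCmKO libraries, replicate 1 of 3mTSCmKO+RM stood below for Itga11 (6.26 CPM, next 9.26), replicate 5 of 9mTSCmKO below for Lamb3 (1.14, next 1.82), replicate 1 of 9mTSCmKO+RM above for Itgb3bp (7.04, next 4.82) and replicate 3 of that group above for Lamb2 (227, next 173).

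Effects that differed between groups by an interaction test in edgeR were those of genotype on Lamc3 between ages (-2.61 on the log2 scale, adjusted p = 0.0471), of rapamycin between genotypes at 9 months on Itga11 (1.98, adjusted p = 0.0123) and Itga9 (0.99, adjusted p = 0.0334), and of rapamycin between genotypes at 3 months on Lamb3 (1.06, adjusted p = 0.0138) and Itgb6 (0.93, adjusted p = 0.0271).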

How the results depend on the processing

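No call of a gene reversed its direction under the alternatives run. Among repeats of named genes, 98 lost and 41 gained the threshold, and 74 of values past no threshold changed sign. Fitting only the groups compared called 11 of the 34 genes for genotype at 9 months (20.01% of all genes), 11 for rapamycin in 3mTSCmKO (31.6%), 4 in 9mCON, 3 in 3mCON, 0 for the rapamycin by genotype interaction at 9 months and 12 for treated TSCmKO at 3 months (27.6%). Genotype by age gave 0 under that fit, upper-quartile scaling, no filter, insert size and the replicate block. With insert size the rapamycin by genotype count at 9 months was 1 (3.71% of all genes) and that for age in TSCmKO 9 (12.57%). The insert size of 9mTSCmKO+RM replicate 5 is not given, and that library was dropped. limma called 5 for genotype at 3 months and 1 and 0 for the rapamycin interactions at 9 and 3 months, where DESeq2 called 10, 2 and 2. For age in CON, limma and DESeq2 called 3 each. The causes were not tested. Leaving out 1 library gave 15 to 19 for genotype at 9 months, 6 to 9 at 3 months, 0 to 1 for genotype by age, 5 to 9 for rapamycin in 9mTSCmKO, 6 to 9 in 3mTSCmKO, 6 to 10 in 9mCON, 1 in 3mCON, 1 to 4 and 1 to 2 for the interactions at 9 and 3 months, 0 to 5 for age in CON, 9 to 16 in TSCmKO, 10 to 15 for treated TSCmKO at 9 months and 3 to 7 at 3 months. With the replicate block 17, 9, 7, 9, 9 and 1 genes passed for genotype at 9 and 3 months and rapamycin in 9mTSCmKO, 3mTSCmKO, 9mCON and 3mCON. The numbers do not pair the mice, and the block had no further use. Lamc3, Itgb4 and Itga2b are limited by depth.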
